A study of Homo sapiens with 6 samples.

Results

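SGK1, BHLHE40, ID1 and RHOU were set apart among the genes of stimulated Jurkat cells, which are a leukaemia line of human T cells, because their transcripts read low after knockdown of the ribosomal protein RPS3. They are 4 of 4604 named genes on the array, found by the platform's gene symbol, and they have 8 of its 15246 probes, 4 for SGK1, 2 for BHLHE40 and 1 each for ID1 and RHOU. All 8 probes had a value on every array. The genes were chosen from the same 6 arrays, so their ratios are given below as a description, with no test. Each array set RNA from cells given RPS3 siRNA or p65 siRNA, labelled with Cy5, against RNA from cells given nonspecific siRNA, labelled with Cy3; p65 is the NF-kB subunit encoded by RELA. All cells, the controls included, had their T-cell receptor triggered by antibodies to CD3 and CD28 (1 ug), for the same time on both channels of an array. The times were 1, 3 and 6 h, with 1 array per siRNA and time. The cells are of a single leukaemia line, unstimulated cells were not analysed here, and nothing in the labels says whether arrays of one time shared a control RNA or came from separate cultures, so any spread below is between arrays and may be technical. Values are log2 ratios of siRNA over control siRNA, centred on each array's median, with the SD over 3 arrays; this direction is the likely one but is not stated with the values. In such bulk RNA, fewer cells with a transcript and less of it per cell cannot be told apart.

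SGK1 encodes a serine/threonine kinase whose transcript is induced by serum and glucocorticoids, and which acts below phosphoinositide 3-kinase, beside the AKT kinases. BHLHE40 encodes a basic helix-loop-helix repressor that binds E-boxes of the form CACGTG, acts in the circadian clock, and controls cytokine production in activated T cells. ID1 encodes a helix-loop-helix protein without a DNA-binding region, which holds E proteins off DNA and is a classical target of BMP signalling. RHOU encodes an atypical small GTPase, related to CDC42, that acts on the actin cytoskeleton and cell adhesion. None of them is a ribosomal protein gene or an NF-kB subunit gene.

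The promoter windows of these genes are shown because NF-kB acts through promoter motifs and the genes divide into some that read low with p65 siRNA and some that did not. Whether NF-kB has a part in those readings was not tested. RefSeq, build GRCh38.p14, gives 3 windows for SGK1, 1 for BHLHE40, 1 for ID1 and 2 for RHOU, each running from 250 bases before to 50 bases after a transcript start. The window with the most downstream start is printed for each gene, 5′ to 3′ on the gene's strand, with every match to the 8 motifs searched in capitals.
SGK1, chr6:134174817-134175116, minus strand: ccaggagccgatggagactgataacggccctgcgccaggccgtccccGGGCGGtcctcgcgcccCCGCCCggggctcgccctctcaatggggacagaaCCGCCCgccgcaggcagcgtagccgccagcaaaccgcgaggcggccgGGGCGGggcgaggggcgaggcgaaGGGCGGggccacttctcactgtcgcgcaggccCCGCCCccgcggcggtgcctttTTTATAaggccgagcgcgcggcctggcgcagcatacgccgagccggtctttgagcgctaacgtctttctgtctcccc
BHLHE40, chr3:4979187-4979486, plus strand: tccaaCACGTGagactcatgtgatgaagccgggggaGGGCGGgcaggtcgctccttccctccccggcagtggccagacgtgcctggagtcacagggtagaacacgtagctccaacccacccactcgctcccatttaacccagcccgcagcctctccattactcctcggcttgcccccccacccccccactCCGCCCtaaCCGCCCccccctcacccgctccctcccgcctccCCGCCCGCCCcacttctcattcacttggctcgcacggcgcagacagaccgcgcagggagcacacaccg
ID1, chr20:31605039-31605338, plus strand: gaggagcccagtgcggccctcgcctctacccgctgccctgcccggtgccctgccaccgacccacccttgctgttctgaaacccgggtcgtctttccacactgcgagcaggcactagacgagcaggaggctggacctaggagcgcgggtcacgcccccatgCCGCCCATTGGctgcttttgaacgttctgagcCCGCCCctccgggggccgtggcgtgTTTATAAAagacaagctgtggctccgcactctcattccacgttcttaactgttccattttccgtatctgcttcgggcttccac
RHOU, chr1:228735229-228735528, plus strand: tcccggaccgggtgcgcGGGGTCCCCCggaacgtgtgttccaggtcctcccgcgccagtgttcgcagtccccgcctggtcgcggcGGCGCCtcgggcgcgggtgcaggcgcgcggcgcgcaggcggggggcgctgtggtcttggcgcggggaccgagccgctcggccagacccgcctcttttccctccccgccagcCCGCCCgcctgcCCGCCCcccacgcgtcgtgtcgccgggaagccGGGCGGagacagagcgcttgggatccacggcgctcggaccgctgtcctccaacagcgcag

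Motifs were searched on both strands. They were the E-box CACGTG, the cyclic AMP response element TGACGTCA, the CCAAT box, the GC box GGGCGG, the TATA motif TATAAA, the palindrome GGCGCC, the NF-kB motif and the serum response element. The cyclic AMP and serum response elements, in 1.85% and 1.29% of all windows, matched in none of these. A NF-kB match stood in 1 of the 7 windows, that of RHOU printed above, as GGGGTCCCCC at bases -233 to -224 from the start site, against 11.3% of the 35116 windows of this length. The other windows, those of SGK1, BHLHE40 and ID1 among them, held no match to it, which says only that these letters are not in these windows. BHLHE40 held the E-box CACGTG at bases -245 to -240, a motif in 7.26% of all windows. The TATA motif TATAAA lay at bases -27 to -22 of the printed SGK1 window, on the opposite strand. In the ID1 window it lay at -33 to -28 on the opposite strand and, overlapping that, at -31 to -26 on the gene's strand. It was in 11.5% of all windows. GC boxes numbered 6 in the printed SGK1 window, 5 in that of BHLHE40, 3 in that of RHOU and 2 in that of ID1, where 45.0% of all windows held at least 1. ID1 also had 1 CCAAT, found in 34.6% of windows, and RHOU 1 GGCGCC, found in 19.2%. A match is a string of letters, and no binding was measured.

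The state of the arrays bears on every value that follows. The probe for the knocked-down RPS3 had ratios of -2.50, -2.53 and -1.44 with RPS3 siRNA (1, 3 and 6 h), and 0.11, 0.01 and 1.11 on the p65 siRNA arrays. RELA, averaged over its 2 probes, read -0.54 ± 0.15 with RPS3 siRNA and -0.49 ± 0.09 with p65 siRNA. The probes disagreed in size, with means of -1.07 and -0.01 with RPS3 siRNA and of -0.91 and -0.06 with p65 siRNA. By neither probe did the ratios of the p65 target set the p65 siRNA arrays apart from the others. Over all probes the arrays did not correlate best by siRNA. The pair at 6 h had a Pearson r of 0.69 (12141 probes), RPS3 siRNA at 1 h went with p65 siRNA at 3 h (r = 0.47), and RPS3 siRNA at 3 h with p65 siRNA at 1 h (r = 0.46). The ID numbers in the array titles form 2 blocks with a gap between them. These blocks are called runs here, but no label says which arrays were processed together. Run 1 comprised RPS3 siRNA at 3 h and p65 siRNA at 1 h, and run 2 the other 4 arrays. The SD of all deposited ratios was 0.26 and 0.29 on the run 1 arrays and 0.37 to 0.51 on those of run 2. Ratios between samples of one line give no level of a marker, so the cell type was not checked. The 11 T cell markers tested had a median of 0.17 with RPS3 siRNA and -0.02 with p65 siRNA, and 8 markers of other lineages had 0.04 and 0.15. Their part in the results was not tested.

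SGK1 read low with both siRNAs. Its mean over 4 probes was -0.82, -0.57 and -0.93 with RPS3 siRNA (1, 3 and 6 h), against -0.76, -0.41 and -0.68 on the p65 siRNA arrays. All 6 values lay below 0 and the ranges of the siRNAs overlapped. The average was -0.77 ± 0.19 with RPS3 siRNA, or 1.71-fold lower than control siRNA, and -0.62 ± 0.18 with p65 siRNA, or 1.54-fold lower. At matched times the RPS3 siRNA value was the lower one by little, with differences of -0.06, -0.16 and -0.25 at 1, 3 and 6 h. Among the 7267 features measured on every array (3932 named genes and 3335 unnamed probes), 16 had a lower mean with RPS3 siRNA and 31 with p65 siRNA.

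The SGK1 probes differed in size. Probe 35298_1 averaged -0.97 ± 0.30 with RPS3 siRNA and -0.76 ± 0.12 with p65 siRNA. Probe 34708_1 averaged -0.88 ± 0.26 and -0.85 ± 0.16, and probe 24908_1 -0.74 ± 0.17 and -0.57 ± 0.12, in the same order of siRNAs. These 3 probes lay below 0 on all 6 arrays. Probe 26401_1 was closest to 0, at -0.51 ± 0.17 with RPS3 siRNA and -0.29 ± 0.33 with p65 siRNA, and read 0.06 on the p65 siRNA array at 3 h. With RPS3 siRNA the SD between the 4 probes was 0.36 at 1 h, 0.05 at 3 h and 0.20 at 6 h. With p65 siRNA it was 0.19, 0.33 and 0.24. At 1 h both SDs exceeded the difference between the siRNAs.

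BHLHE40 also lay below 0 on every array, and with RPS3 siRNA its ratios spread more than those of the other 3 genes. Its mean over 2 probes was -1.31, -0.35 and -1.24 with RPS3 siRNA (1, 3 and 6 h), against -0.63, -0.18 and -0.11 on the p65 siRNA arrays. The 3 h array with RPS3 siRNA read closer to 0 than the 1 h array with p65 siRNA, so the siRNAs overlapped. The averages were -0.97 ± 0.54 with RPS3 siRNA and -0.31 ± 0.28 with p65 siRNA. Both probes showed this, with means of -0.97 and -0.96 with RPS3 siRNA and of -0.30 and -0.32 with p65 siRNA. They lay within 0.18 of each other on each of the 6 arrays. With p65 siRNA, the low reading was mostly that of the 1 h array: 1.27% of features read lower there, against 28.1% at 3 h and 33.0% at 6 h. Without the p65 siRNA 1 h array the p65 siRNA mean was -0.15.

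SGK1 and BHLHE40 thus shared a sign on all 6 arrays, which 231 of the 7267 tested features (3.18%) did on the low side. With RPS3 siRNA alone 15.5% of features lay below 0 on all 3 arrays, and with p65 siRNA alone 9.66%. The choice of the genes used these values, and nothing is read from that share.

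ID1 and RHOU read low with RPS3 siRNA only. The single ID1 probe, 27791_1, read -0.64, -0.51 and -1.02 with RPS3 siRNA (1, 3 and 6 h), against 0.19, 0.25 and -0.28 on the p65 siRNA arrays. Every RPS3 siRNA value was below every p65 siRNA value, and the 6 h value was the lowest of its group with each siRNA. The averages were -0.72 ± 0.26 and 0.05 ± 0.29, and the time-matched differences, RPS3 siRNA minus p65 siRNA, were -0.83, -0.77 and -0.73, with an SD of 0.05. On the log2 scale the 2 series of ratios thus kept a similar distance at these times. Each value is that of 1 probe on 1 array. Leaving out the 3 h array of p65 siRNA turned the sign of its mean (-0.05), and so did leaving out the 1 h array (-0.01).

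Within each siRNA the RHOU ratios spread less than those of ID1. The single probe, 28009_1, read -0.80, -0.95 and -1.15 with RPS3 siRNA (1, 3 and 6 h), against -0.07, 0.05 and 0.04 on the p65 siRNA arrays. The groups did not overlap, and the p65 siRNA values all lay within 0.07 of 0. The averages were -0.97 ± 0.18 with RPS3 siRNA, or 1.95-fold lower than control siRNA, and 0.01 ± 0.06 with p65 siRNA. The time-matched differences were -0.73, -0.998 and -1.19, with an SD of 0.23, wider than that of ID1. Only 4 features had a lower difference of means and 4 a lower RPS3 siRNA mean; for ID1 these counts were 9 and 19. Over all features, 350 (4.82%) had all RPS3 siRNA values below all p65 siRNA values, and 894 (12.3%) lay below 0 on the 3 RPS3 siRNA arrays but not on all 3 p65 siRNA arrays. ID1 and RHOU were chosen for this pattern. With 1 probe each, no second probe on the array checks them.

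**Figure D1:**
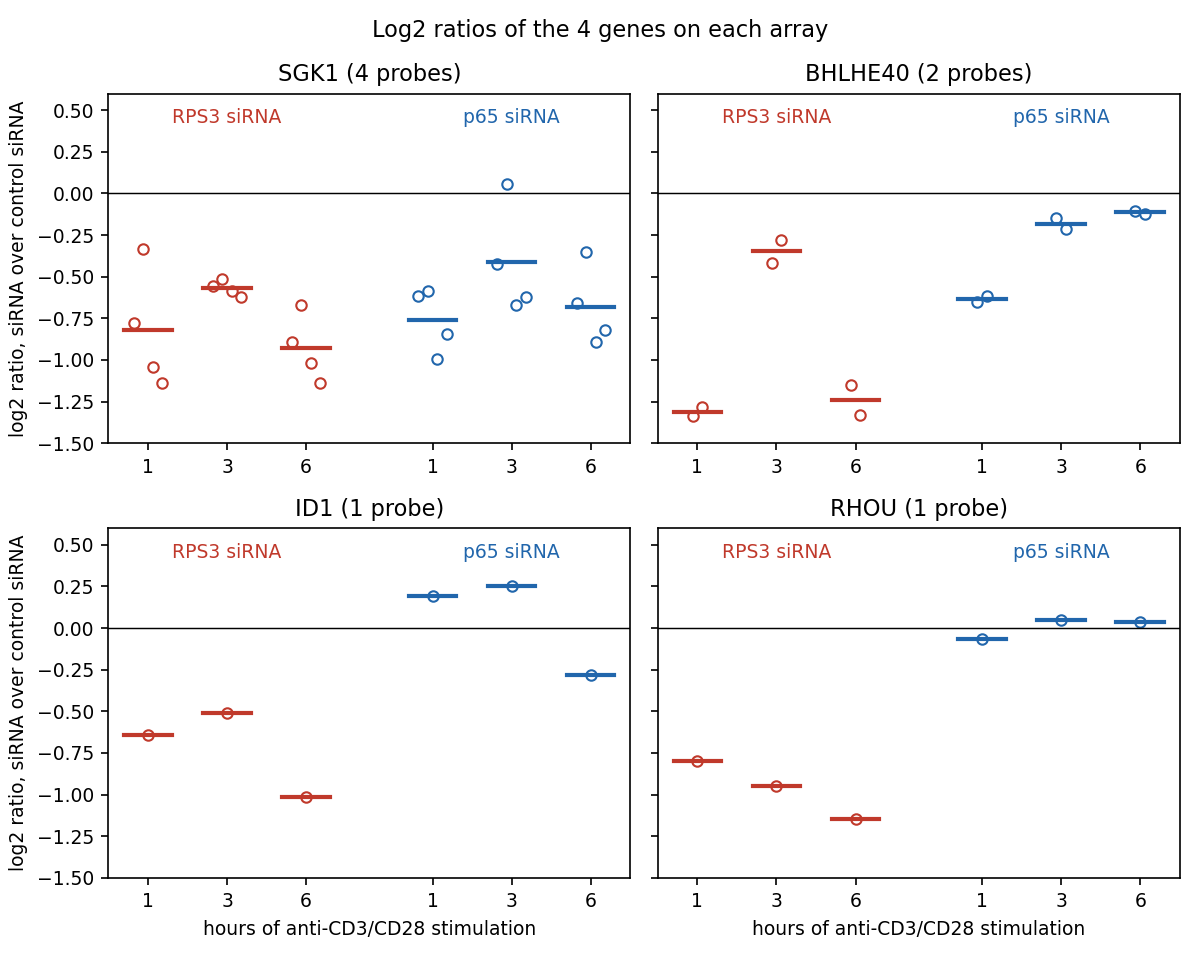
Log2 ratios of siRNA over control siRNA (vertical axes) for SGK1, BHLHE40, ID1 and RHOU on the RPS3 siRNA arrays (red, left) and the p65 siRNA arrays (blue, right) at 1, 3 and 6 h of stimulation. Open circles are single probes and bars the mean over a gene's probes on an array; SGK1 and BHLHE40 lie below 0 on both sides of a panel by their bars, while ID1 and RHOU lie lower with RPS3 siRNA at each time, RHOU between -1.15 and -0.80 against -0.07 to 0.05 with p65 siRNA.

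By mean ratio the order with RPS3 siRNA was BHLHE40 (-0.97), RHOU (-0.97), SGK1 (-0.77) and ID1 (-0.72). RHOU and SGK1 differed by 0.19, slightly more than the SD of either, and the other neighbours by less than their SDs. With p65 siRNA the order was SGK1 (-0.62), BHLHE40 (-0.31), RHOU (0.01) and ID1 (0.05). SGK1 and BHLHE40 differed there by 0.31, against SDs of 0.18 and 0.28, BHLHE40 and RHOU by 0.32, against 0.28 and 0.06, and RHOU and ID1 by less than the SD of either. These are ratios to the control, not transcript levels, so the order says nothing of which gene was most abundant.

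**Figure D2:**
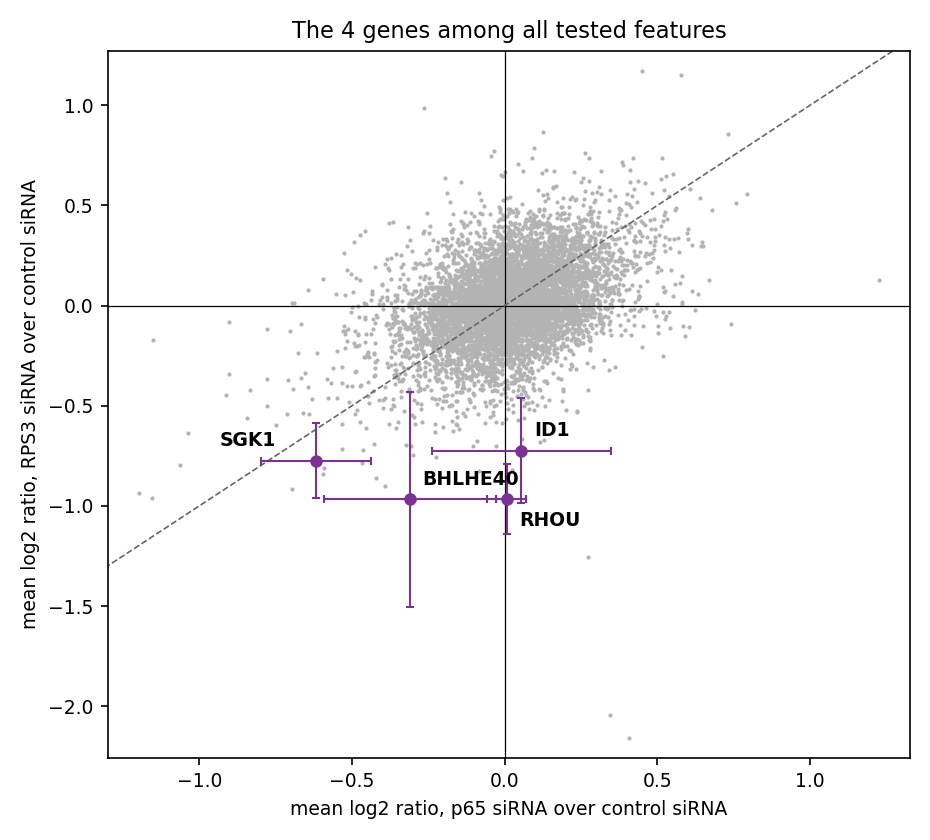
Mean log2 ratio with p65 siRNA (horizontal axis, 3 arrays) against that with RPS3 siRNA (vertical axis, 3 arrays) for the 7267 tested features (grey) and the 4 genes (purple, bars are the SD over 3 arrays). The dashed line marks equal means; SGK1 lies near it at -0.62 and -0.77, and ID1 and RHOU lie straight below the origin.

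The difference between the siRNAs was then set out by array run, since runs and times are crossed. In run 2, with 2 arrays of each siRNA, RPS3 siRNA minus p65 siRNA was -0.33 for SGK1, -1.13 for BHLHE40, -0.82 for ID1 and -1.02 for RHOU. In run 1, with 1 array of each (RPS3 siRNA at 3 h, p65 siRNA at 1 h), it was 0.19 for SGK1, 0.29 for BHLHE40, -0.70 for ID1 and -0.88 for RHOU. The sign for ID1 and RHOU was the same in both runs, and that for SGK1 and BHLHE40 was not. For ID1 and RHOU every RPS3 siRNA value lies below every p65 siRNA value, so any split of these arrays gives that sign. Both were chosen for that pattern, and their agreement between runs is no check of it. At 1 and 3 h the siRNAs lie in different runs, so siRNA and run cannot be told apart in those time-matched differences. Within run 1 the siRNAs differ in time, so siRNA and time cannot be told apart there. In run 2 only the 6 h arrays match in time. Both 6 h arrays were in run 2, and that pair, matched in run and time, differed by -0.25 for SGK1, -1.13 for BHLHE40, -0.73 for ID1 and -1.19 for RHOU. Averaged over the times, the difference was -0.16 ± 0.09 for SGK1, -0.66 ± 0.48 for BHLHE40, -0.78 ± 0.05 for ID1 and -0.97 ± 0.23 for RHOU (SD over 3 times). For BHLHE40 it lay between -0.42 without the 6 h pair of arrays and -0.90 without the 3 h pair.

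**Figure D3:**
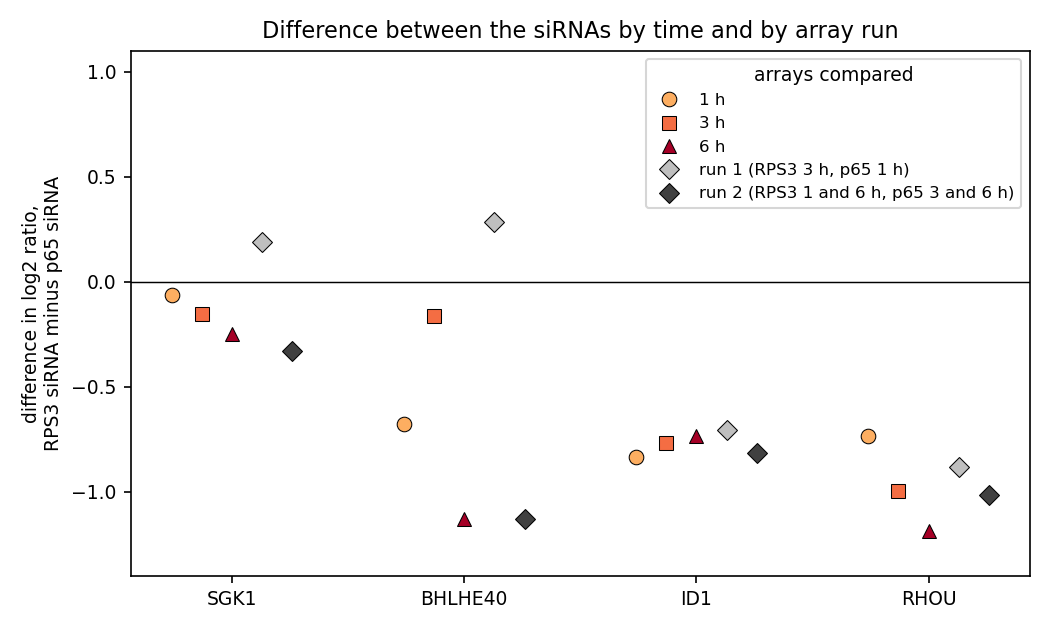
Difference in log2 ratio, RPS3 siRNA minus p65 siRNA (vertical axis), for each gene at 1, 3 and 6 h (circle, square, triangle) and within array runs 1 and 2 (light and dark diamonds). ID1 stays between -0.83 and -0.70 and RHOU between -1.19 and -0.73, whereas BHLHE40 spans -1.13 to 0.29 and SGK1 crosses 0 in run 1. The siRNA groups of ID1 and of RHOU do not overlap, so their sign is fixed in each of these comparisons. Run 1 sets RPS3 siRNA at 3 h against p65 siRNA at 1 h, so it is not matched in time. The runs are inferred from ID numbers in the array titles.

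Arrays differ in the spread of all their ratios, so each value was also divided by its array's median absolute deviation. On this scale SGK1 lay at -3.98, -3.85 and -3.58 with RPS3 siRNA (1, 3 and 6 h), against -4.44, -1.71 and -3.26 on the p65 siRNA arrays. The RPS3 siRNA values of SGK1 were nearly level over time on this scale. BHLHE40 lay at -6.35, -2.35 and -4.78 with RPS3 siRNA, against -3.71, -0.76 and -0.54 with p65 siRNA. Its 3 h value with RPS3 siRNA was still the one closest to 0 of its group. RHOU was lowest at 3 h on this scale, at -3.87, -6.41 and -4.42 with RPS3 siRNA, against -0.39, 0.20 and 0.18 with p65 siRNA, while on the log2 scale it was lowest at 6 h. ID1 lay at -3.11, -3.47 and -3.91 with RPS3 siRNA, against 1.12, 1.05 and -1.35 with p65 siRNA. Its RPS3 siRNA and p65 siRNA values lay closest together at 6 h on this scale. The groups of ID1 and of RHOU did not overlap on either scale. Both genes were chosen for that pattern on these arrays, so nothing is read from it.

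Genes with the most similar readings were looked for among the other 3931 named tested genes, by the root mean square difference in log2 ratio over the 6 arrays. Pearson correlations over the same 6 arrays are given as a description; the points share arrays, runs and depth of signal. Closest to ID1 were 3 genes of mitosis. CCNB1, which encodes cyclin B1, differed by 0.13 (r = 0.96), CDK1, its kinase, by 0.14 (r = 0.97), and CENPA, the histone variant of centromeres, by 0.18 (r = 0.99). CCNB1 read -0.51, -0.53 and -1.07 with RPS3 siRNA (1, 3 and 6 h), against 0.26, -0.01 and -0.35 on the p65 siRNA arrays. It shared with ID1 the lowest value at 6 h for both siRNAs, but from 1 to 3 h ID1 moved up with each siRNA and CCNB1 did not. Closest to RHOU was HSPA5, the endoplasmic reticulum chaperone BiP, which differed by 0.21 (r = 0.92). HSPA5 read -0.84, -0.90 and -0.72 with RPS3 siRNA, against 0.16, -0.12 and 0.03 with p65 siRNA. ID1 itself came next for RHOU, at 0.27 (r = 0.89), and CCNB1 after it, at 0.30 (r = 0.84).

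Closest to SGK1 was CD83, a surface marker of activated lymphocytes and dendritic cells, at 0.22 (r = 0.53). Over its 12 probes CD83 averaged -0.58 ± 0.17 with RPS3 siRNA and -0.47 ± 0.07 with p65 siRNA. NCOA7, which encodes a nuclear receptor coactivator, followed at 0.24 (r = 0.72), and RELA at 0.28 (r = -0.24). RELA was compared as the average of its disagreeing probes, and its single probes were not ranked. That average did not move with SGK1 from array to array. Closest to BHLHE40 were NCOA7 at 0.32 (r = 0.89), SGK1 at 0.36 (r = 0.82) and the collagen gene COL15A1 at 0.38 (r = 0.78). NCOA7 read -0.71, -0.46 and -0.91 with RPS3 siRNA, against -0.33, -0.34 and -0.30 with p65 siRNA, so it shared the smaller reading of BHLHE40 at 3 h with RPS3 siRNA. BHLHE40 had the most distant nearest gene of the 4. Between the 4 genes, ID1 and RHOU were the closest pair (0.27) and SGK1 and ID1 the most distant (0.51, r = 0.68).

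**Figure D4:**
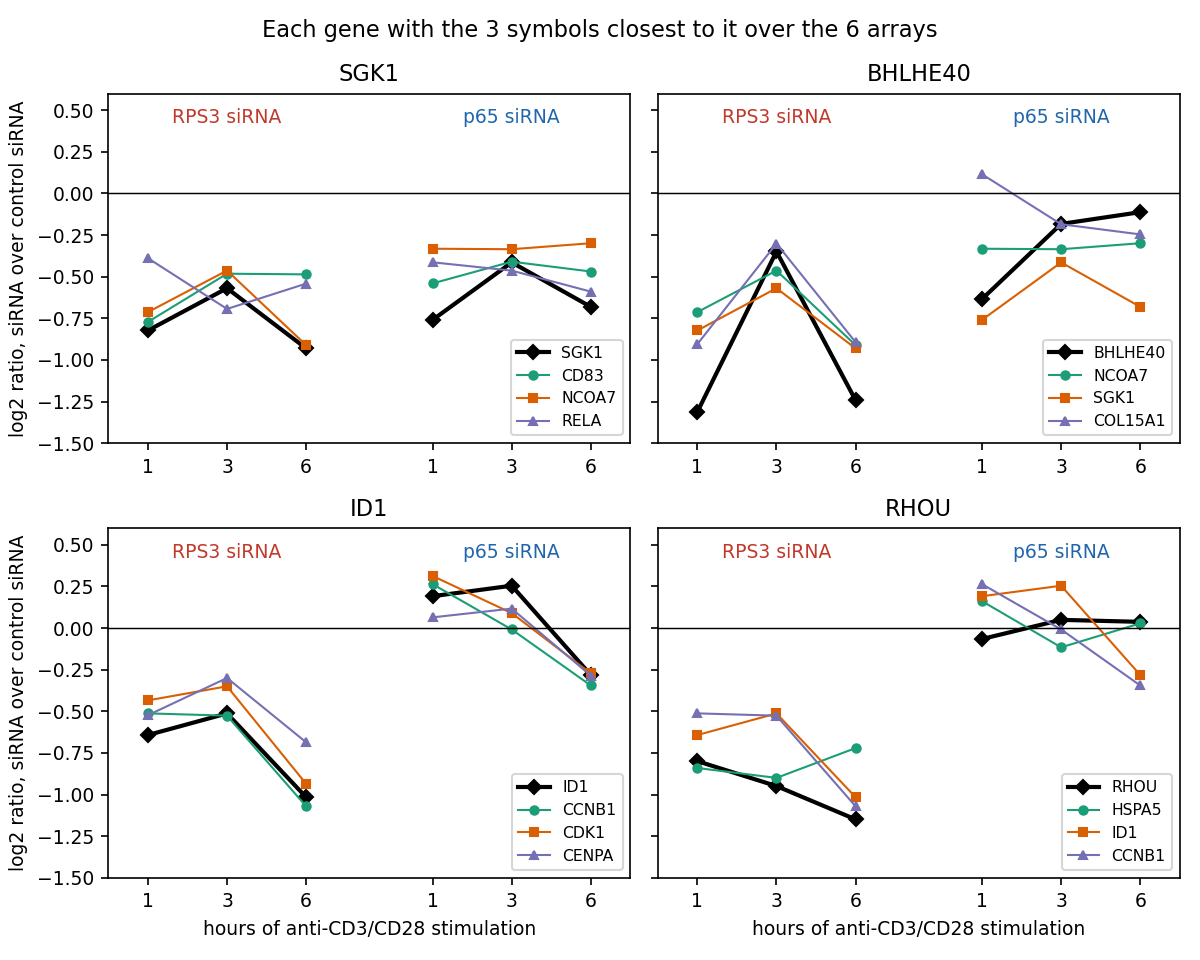
Log2 ratios of siRNA over control siRNA (vertical axes) for each of the 4 genes (black) and the 3 named genes closest to it (coloured) on the RPS3 siRNA arrays (left) and p65 siRNA arrays (right) at 1, 3 and 6 h. ID1, CCNB1, CDK1 and CENPA all have their lowest value at 6 h with each siRNA, while none of its 3 closest genes follows BHLHE40 down to -1.31 at 1 h.

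Relatives and pathway genes were then examined by lists, tested in the fit over all 7267 features (limma, Benjamini-Hochberg adjusted p under 0.05). The 4 lists held 68 tested genes besides SGK1, BHLHE40 and ID1. In each comparison 0 of the 68 passed, as did 0 of all features (0%). The lowest adjusted p was 0.373 with RPS3 siRNA, 0.935 with p65 siRNA and 1.00 for the difference between them. At an unadjusted p under 0.05, 5 of the 68 were lower (7.35%) and 3 higher (4.41%) with RPS3 siRNA, against 4.76% and 3.99% of all features. With p65 siRNA 3 were lower (4.41%) and 1 higher (1.47%), against 2.24% and 2.71% of all features. For RPS3 siRNA minus p65 siRNA 1 was lower and 1 higher (1.47% each), against 1.61% and 0.936%. The median over the 68 was 0.01 with RPS3 siRNA and -0.02 with p65 siRNA, where all features had 0.01 and 0.02. None of the values below passed the adjusted threshold. The knocked-down RPS3 did not pass in this fit either, at -2.16 ± 0.62 with RPS3 siRNA (limma adjusted p = 0.0993). Not passing therefore says little about smaller changes in the listed genes.

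The ID family gave values for all its members. ID2 averaged -0.16 ± 0.24 with RPS3 siRNA and -0.17 ± 0.14 with p65 siRNA (limma adjusted p = 0.753 and 0.937), and its 3 probes ran from -0.51 to 0.29 in their means with RPS3 siRNA. ID3 averaged -0.16 ± 0.20 and -0.01 ± 0.04 in the same order (adjusted p = 0.726 and 0.998). ID4 averaged 0.02 ± 0.23 and -0.05 ± 0.16 (adjusted p = 0.988 and 0.984). Each of these means was closer to 0 than that of ID1 with RPS3 siRNA, but ID1 was chosen for being low, so nothing is read from that. Of the 18 tested genes of helix-loop-helix factors and their partners, 8 lay below 0 with RPS3 siRNA and 8 with p65 siRNA. Lowest with RPS3 siRNA was HES1, a repressor induced by Notch. HES1 read -0.56, -0.26 and -0.54 with RPS3 siRNA at 1, 3 and 6 h, against -0.12, 0.28 and -0.04 with p65 siRNA. The difference was -0.49 ± 0.05 and did not pass (limma adjusted p = 1.00, unadjusted p = 0.0235). LMO2, a partner of these factors, averaged -0.22 ± 0.35 with RPS3 siRNA. Highest were MYC at 0.39 ± 0.23 and TCF12, one of the E proteins bound by ID1, at 0.36 ± 0.17 (limma adjusted p = 0.513 and 0.442), against 0.08 ± 0.30 and -0.03 ± 0.13 with p65 siRNA. With p65 siRNA, GATA3, a T-cell transcription factor, was lowest at -0.37 ± 0.16, then MYCN at -0.20 ± 0.17, and SREBF2 (0.25 ± 0.02) and TCF4 (0.21 ± 0.41) were highest. MAX, the partner of MYC, differed by 0.31 ± 0.07 between the siRNAs.

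In the BMP and TGF-beta list, which holds the receptors and SMAD proteins that act upstream of ID1, 11 of 21 genes lay below 0 with RPS3 siRNA and 12 with p65 siRNA. The medians were -0.01 and -0.02. TGFBR1, a type I receptor, was lowest with both, at -0.46 ± 0.68 and -0.58 ± 0.55. SKIL, an inhibitor of SMAD proteins, averaged -0.36 ± 0.30 with RPS3 siRNA and -0.23 ± 0.12 with p65 siRNA. SMAD5, which carries BMP signals, averaged -0.09 ± 0.57 and -0.33 ± 0.77, and SMAD7, another inhibitor, -0.36 ± 0.51 and -0.12 ± 0.56. These SDs exceed the means of SMAD5 and SMAD7. The ligand gene TGFB1 averaged -0.26 ± 0.22 with RPS3 siRNA and 0.08 ± 0.23 with p65 siRNA. The highest means were those of ENG (0.26) and BMP7 (0.23) with RPS3 siRNA, and of ACVRL1 (0.13) and TGFBR2 (0.08) with p65 siRNA.

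Of the relatives of RHOU, RAC1 and CDC42 had values. RAC1, a GTPase of cell protrusion, read -0.46, -0.34 and -0.46 with RPS3 siRNA (1, 3 and 6 h), against 0.32, 0.05 and -0.02 on the p65 siRNA arrays. Its 6 probes averaged between -0.49 and -0.34 with RPS3 siRNA. The groups did not overlap, which was so on this side for 4.82% of all features. The RPS3 siRNA mean of -0.42 ± 0.07 did not pass (limma adjusted p = 0.369, unadjusted p = 0.00546), nor did the difference of -0.54 ± 0.21 (adjusted p = 1.00). CDC42, which acts in cell polarity, averaged -0.16 ± 0.15 with RPS3 siRNA and -0.13 ± 0.17 with p65 siRNA (limma adjusted p = 0.737 and 0.938).

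In the SGK1 list of upstream kinases, phosphatases and substrates, 9 of 19 genes lay below 0 with RPS3 siRNA and 12 with p65 siRNA, with medians of 0.07 and -0.05. KLF9, a glucocorticoid-induced factor, averaged -0.40 ± 0.36 with RPS3 siRNA and -0.02 ± 0.32 with p65 siRNA. The ubiquitin ligase gene NEDD4 averaged -0.30 ± 0.18 and -0.19 ± 0.17. PIK3R1, the regulatory subunit of phosphoinositide 3-kinase, averaged -0.26 ± 0.28 and -0.44 ± 0.36, and FOXO1, a factor that SGK1 and AKT kinases phosphorylate, -0.05 ± 0.18 and -0.30 ± 0.19. PIK3CD, a catalytic subunit, was highest with RPS3 siRNA at 0.24 ± 0.26, and MAPK7 with p65 siRNA at 0.33 ± 0.18. The phosphatase gene INPP5D averaged -0.08 ± 0.02 and 0.11 ± 0.27, and WNK1 0.15 ± 0.30 and -0.18 ± 0.32. SGK1 itself, at -0.77 and -0.62, lay outside the range of its list with each siRNA. The list ran from -0.40 to 0.24 with RPS3 siRNA and from -0.44 to 0.33 with p65 siRNA. SGK1 was chosen for being low, and the list with earlier results of these data known, so nothing is read from this.

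Of clock genes and partners of BHLHE40, 10 were tested, 4 below 0 with RPS3 siRNA and 6 with p65 siRNA. CLOCK averaged -0.34 ± 0.78 and -0.35 ± 0.86, with the 6 h arrays at 0.56 and 0.50 and the others at -0.32 or below. BMAL1, the partner of CLOCK, averaged 0.12 ± 0.62 and 0.25 ± 0.78, again with the 6 h arrays high, at 0.83 and 1.16. BTRC, a ubiquitin ligase subunit, averaged 0.29 ± 0.45 and 0.16 ± 0.48, and the repressor gene CRY1 0.19 ± 0.20 and -0.05 ± 0.35. TIMELESS averaged -0.15 ± 0.10 and -0.08 ± 0.14, and NFIL3 -0.06 ± 0.16 and -0.12 ± 0.21. The casein kinase gene CSNK1E differed by 0.14 ± 0.25 between the siRNAs. BHLHE40 did not share the high 6 h readings of CLOCK, BMAL1 and BTRC. Of the 68 listed genes, 2 (2.94%) had all RPS3 siRNA values below all p65 siRNA values, HES1 and the kinase gene GSK3A, against 4.82% of all features.

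**Figure D5:**
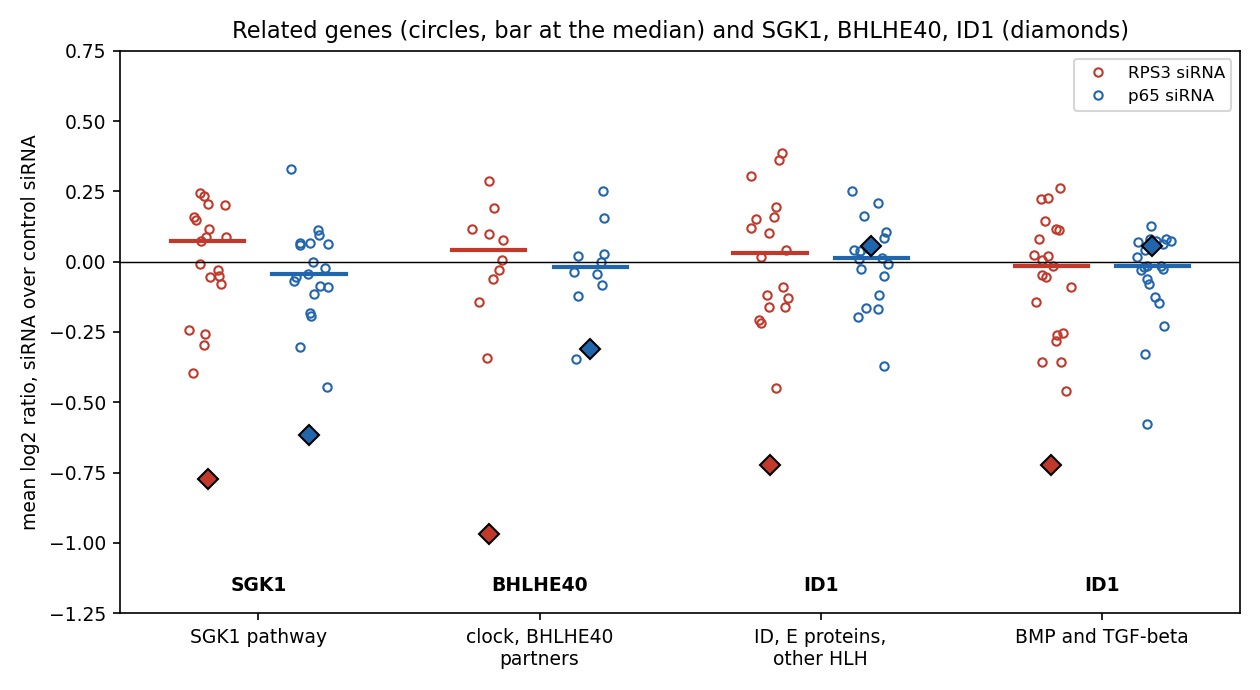
Mean log2 ratio of siRNA over control siRNA (vertical axis, 3 arrays each) with RPS3 siRNA (red) and p65 siRNA (blue) for the genes of 4 related lists (circles, bars at the list median) and for the gene each list was drawn around (diamonds). List medians lie between -0.05 and 0.07, and with RPS3 siRNA each diamond (SGK1, BHLHE40 or ID1), from -0.97 to -0.72, lies below every circle of its list. The diamond genes were chosen for low ratios on these arrays, so nothing is read from that place.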

How the data were processed

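The arrays were 2-colour spotted arrays of reverse-transcribed RNA, 6 in all. The deposited values were log2 ratios of the 2 channels per probe as read here; no label states the log base. The extremes are too wide for base 10; were it a natural log, true log2 sizes would exceed those printed. How images were read, corrected and normalized, and why 5.40% to 15.1% of an array is blank, is not stated in the labels. Deposited medians ran from -0.019 to 0.007. Intensities of the channels were not analysed here, and precision rests on how many arrays there are.

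Each array was centred on its median. Symbols came from the platform annotation, updated by gene ID: 10169 probes had 1 symbol, 4 several and 5073 none. Probes of 1 symbol were averaged, and the 7267 features with values on all 6 arrays were fitted by lmFit and eBayes (limma 3.58.1, R 4.3.3; group means, the times of a siRNA as its replicates; Benjamini-Hochberg). Each ratio carries its control channel, so differences between control samples of different times are part of the spread and cannot be separated from it. With no dye swap named, any constant dye bias remains in each mean. The fit was run on simulated data with noise independent between arrays, unlike the correlated arrays here. That run checked the size of the estimates and does not give the error rate for these data. The members and gene lists (165 symbols with the marker lists, 96 on the array, 87 tested) were chosen with earlier results of these data known. Named genes were the 4 genes, their relatives, the 3 closest genes to each, and the 2 lowest and 2 highest of each related list per comparison; GSK3A was named after its values were seen. SGK2, SGK3, BHLHE41 and RHOV were not analysed here, and a list of genes related to RHOU is not reported here. Alternatives were other centring, normalization, spread, probe summaries and filters, the time point or array run in the fit, and arrays left out; the split by array run of the 4 genes was added after seeing the data.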

Additional observations from a re-analysis of the deposited data

Results flagged for a closer look

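The RPS3 probe differed by -2.57 between RPS3 siRNA and p65 siRNA, with every RPS3 siRNA array below 0 and every p65 siRNA array above 0. The difference did not pass over all features (limma adjusted p = 0.511). None of the 4 genes showed opposite signs on every array of the 2 siRNAs.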

How the results depend on the processing

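At an adjusted p under 0.05, no feature was called in any of the 3 comparisons. With RPS3 siRNA 2 were called after quantile normalization, 3 without both 6 h arrays, 7 with each probe alone, and 0 to 2 when 1 array was left out, the 2 arising without the 6 h array of either siRNA. For RPS3 siRNA minus p65 siRNA 1 was called after quantile normalization and 1 without both 6 h arrays. With p65 siRNA 0 were called under each alternative run. With the time point as a replicate block 3 were called with RPS3 siRNA, 0 with p65 siRNA and 2 for the difference; labels give no other pairing, and same-time arrays correlated at r = 0.12, 0.20 and 0.69 at 1, 3 and 6 h. At an unadjusted p under 0.05 the block moved the counts to 1152 with RPS3 siRNA (636 without it), 750 with p65 siRNA (360) and 451 for the difference (185). Each probe alone gave 1021, 545 and 287. With p65 siRNA it was 750 without both 6 h arrays, 235 without the RPS3 siRNA array of 3 h and 202 without the p65 siRNA array of 3 h. For the difference it was 299 if the p65 siRNA array of 6 h was dropped.

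Of the 4 genes, the difference between the siRNAs turned sign in run 1 for SGK1 (0.19) and BHLHE40 (0.29). The run 1 pair was RPS3 siRNA at 3 h and p65 siRNA at 1 h, not matched in time. In run 2 the difference was -0.33 for SGK1 and -1.13 for BHLHE40. ID1 moved beyond its small SD, to -0.83 after quantile normalization and -0.70 in run 1. The causes were not tested. With 1 time left out, the difference ran from -0.20 to -0.11 for SGK1, -0.90 to -0.42 for BHLHE40, -0.80 to -0.75 for ID1 and -1.09 to -0.87 for RHOU. The RPS3 siRNA mean ran from -0.88 to -0.70 for SGK1, -1.28 to -0.80 for BHLHE40, -0.83 to -0.58 for ID1 and -1.05 to -0.87 for RHOU. The p65 siRNA mean ran from -0.72 to -0.55 for SGK1, -0.41 to -0.15 for BHLHE40, -0.05 to 0.22 for ID1 and -0.01 to 0.04 for RHOU.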

Other observations

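The probes numbered within 10 of each probe of the 4 genes were read as a comparison. The 4 genes were chosen for low ratios, so lying below such neighbours is no test. Whether probe numbers follow position on the array was not checked. The nearest of the 8 probes to the RPS3 probe is SGK1 probe 35298_1, 256 numbers away. The 20 neighbours of the RHOU probe had a median of their RPS3 siRNA means of -0.04, with the lowest at -0.28, against -0.97 for RHOU itself. The 19 neighbours of the ID1 probe had a median of 0.01 and a lowest mean of -0.67, against -0.72 for ID1. Around the BHLHE40 probes the medians were -0.03 and -0.22 and the lowest means -0.61 and -0.59. Around the SGK1 probes the medians ran from -0.24, at probe 26401_1, to 0.10, and the lowest means from -0.68 to -0.28. The lowest, at probe 26401_1, was below that probe's own mean of -0.51.

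Only 1 of the 68 listed genes (1.47%), SKIL, lay below 0 on all 6 arrays as SGK1 and BHLHE40 did, against 3.18% of all features.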
